A study of Mus musculus with 30 samples.

Results

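*Prdm1*, *Prdm14* and *Tfap2c* are the 3 transcription factor genes that specify mouse primordial germ cells (PGCs), and their transcripts were measured in 30 single cells. All probe sets that the platform annotation assigns to these genes were taken, which gave 5 of 45101 probe sets and 3 of 18194 measured genes. The cells came from matings between C57BL/6 mice carrying 1 *Prdm14* null allele, at E7.25-E7.5. They were picked from the base of the allantois bud, their cDNA was amplified, and cells positive for *Prdm1* by PCR were taken as PGCs and hybridised to 1 Affymetrix mouse genome array each. The deposited genotype labels give 4 cells as *Prdm14* (-/-), called *Prdm14* KO here, 13 as *Prdm14* (+/-), called *Prdm14* het, and 13 as *Prdm14* (+/+), called WT. Since no embryo is named, the cells of 1 label may come from 1 embryo or several: each label was treated as 1 sample, no test was run, and every SD is between cells.

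PGCs arise in the posterior epiblast, where BMP4 from the neighbouring extraembryonic ectoderm and WNT3 act on a small number of cells. PRDM1 (also called BLIMP1), a PR-domain zinc finger repressor, shuts down the mesodermal programme that these cells share with their neighbours. PRDM14, another PR-domain protein, restores pluripotency genes and lowers DNA methylation, and TFAP2C (AP-2 gamma) acts downstream of PRDM1 to switch on germ cell genes. In other tissues PRDM1 is also found in visceral endoderm and TFAP2C in trophoblast.

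Values are log2 MBEI, the model-based expression index that summarises the probes of a probe set. Values below 6 (64 MBEI) were set to this floor, at which cells have no order, and a gene above it is called detected. On each array 58.9% to 69.6% of probe sets had the value 0, and 5749 to 8157 genes per cell were detected (7290 to 7568 in cells labelled *Prdm14* KO, 5890 to 7790 in *Prdm14* het and 5749 to 8157 in WT). The array codes show 3 runs of 10 arrays. The 4 cells labelled *Prdm14* KO were all in run 3 with 6 labelled *Prdm14* het, run 2 combined 7 labelled *Prdm14* het with 3 labelled WT, and run 1 was made up of 10 labelled WT. Cells labelled *Prdm14* KO and WT therefore shared no run, and label and run cannot be told apart between them. Differences of at least 1 between group means (2-fold in MBEI) are called higher or lower.

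The germ cell markers were uneven between cells. In 3 cells, *Prdm14* het cells 78 and 100 and WT cell 61, all 3 *Tfap2c* probe sets and *Dppa3*, a germ cell marker, were below the floor. The same cells had the 3 lowest *Prdm1* values of the 30 (7.83, 8.08 and 8.04) and the 3 lowest levels of *Ifitm3*, a surface gene of early PGCs, between 8.59 and 11.05 against 11.90 to 13.44 in the other 27 cells. *Myc* and *Snai1*, which PGCs normally keep low, were detected in all 3 and each also in 10 of the other 27. *Hoxb1*, a posterior mesoderm gene, stood at 11.46 in *Prdm14* het cell 100 and 10.97 in WT cell 61. It was at the floor in cell 78, and its highest value in the other 27 cells was 10.23. *Hand1*, another mesoderm gene, was detected in 2 of the 3 and in 23 of the other 27. It was 11.36 in cell 78 and 11.48 in cell 100, against at most 11.22 in the other 27, and at the floor in WT cell 61. *Pou5f1*, which epiblast and germ cells both express, was detected in all 3, at 8.74 to 11.55, and its 8.74 in cell 78 was the lowest of the 30. Other germ cell genes were mixed in these cells. In cell 78 *Kit* was 10.49 and *Prdm14* 8.97, while *Alpl* was 7.90 and *Dnd1* was at the floor. In cell 100 *Alpl* was 10.89, while *Kit*, *Prdm14* and *Dnd1* were at the floor. WT cell 61 had 10.76 for *Alpl*, 8.77 for *Kit* and 8.40 for *Dnd1*, with *Prdm14* at the floor. Results that rest on these cells are given with and without them. They were singled out after their values were seen, partly by *Tfap2c* itself, so leaving them out also trims the range of *Tfap2c*.

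Visceral endoderm, which also expresses *Prdm1*, left almost no trace. Of 6 visceral endoderm markers, *Apob*, *Ttr*, *Afp* and *Cubn* were at the floor in all 30 cells, and *Apoa1* and *Amn* were above it in 1 cell each. The summed level of this list was 36 in every cell labelled *Prdm14* KO and *Prdm14* het, which is the value with all 6 genes at the floor, and 36 to 38.69 in those labelled WT. Of the trophoblast markers *Elf5* was at the floor in every cell and *Eomes* was above it in 2. *Esrrb* and *Gata3*, in 11 and 17 cells, are on that list too, although *Esrrb* is also a naive pluripotency gene. The summed level of its 6 genes was 39.82 to 45.93 in cells labelled *Prdm14* KO, 36 to 45.51 in *Prdm14* het and 36 to 42.09 in WT. Of 7 blood and endothelium markers, *Gata1*, *Hba-x* and *Hbb-y* were at the floor throughout. *Kdr* was above it in 10 cells, *Etv2* in 6, *Tal1* in 2 and *Runx1* in 1. The 7 genes summed to 42.68 to 43.30 in cells labelled *Prdm14* KO, 42 to 46.21 in *Prdm14* het and 42 to 44.92 in WT. *Sox17*, an endoderm gene that is on the definitive endoderm list, was detected in 21 cells, while *Foxa2*, *Cer1* and *Hhex* were above the floor in 3, 1 and 2 cells. *Trh*, also on that list, was detected in 10 cells and averaged 7.98 in *Prdm14* KO, 6.95 in *Prdm14* het and 6.28 in WT. The definitive endoderm list of 5 genes summed to 35.65 to 43.02 in cells labelled *Prdm14* KO, 30 to 38.90 in *Prdm14* het and 30 to 41.47 in WT, and the 6 measured mesoderm genes to 41.34 to 53.59, 42.85 to 59.98 and 41.74 to 59.46 in the same order. These ranges overlapped between labels, and their part in the differences given next was not tested.

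*Prdm14*, the targeted gene, lies on chromosome 1 from 13113428 to 13127163 in GRCm38.p6 and is read by 1 probe set, 1444390_at. Cells labelled *Prdm14* KO had 10.03, 12.06, 11.38 and 12.15 (cells 8, 18, 21 and 81). Cells labelled *Prdm14* het had 11.19, 7.69, 8.97, 11.04, 11.07, 11.15 and 11.79 in run 2 (cells 66, 76, 78, 79, 88, 89 and 91) and 9.53, 9.92, 10.004, 6.35 and 11.32 in run 3 (cells 97, 98, 99, 118 and 119), where cell 100 was listed at 0. Cells labelled WT had 6.74, 7.67, 10.09 and 9.94 in run 1 (cells 28, 31, 33 and 49), where the other 6 were listed at 0, and 9.34 and 10.44 in run 2 (cells 64 and 65), where cell 61 was listed at 0. The transcript was thus detected in 4 of 4 cells labelled *Prdm14* KO, 12 of 13 labelled *Prdm14* het and 6 of 13 labelled WT, an order that runs against the genotype labels. The position of the probe set relative to the deletion was not known here, so its signal does not check the labels. Whether the labels are right was not tested, and every difference below takes its direction from them. For *Dppa3*, too, the direction by these labels is the opposite of the one the study drew between KO and WT.

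The mean *Prdm14* level was 11.40 ± 0.98 in cells labelled *Prdm14* KO (SD, n = 4), 9.70 ± 1.93 in *Prdm14* het (SD, n = 13) and 7.40 ± 1.85 in WT (SD, n = 13). The difference of 4.0 between the labelled KO and WT cells exceeded the pooled SD between cells of 1.71, but 2 of the 13 WT cells reached or passed the lowest KO cell, so the groups overlapped. Over all genes detected in at least 10 cells, 14.6% were higher by at least 1 in this comparison and 8.84% were lower, with a median difference of 0.12. The difference of 1.71 between cells labelled *Prdm14* KO and *Prdm14* het was within the pooled SD of 1.78, and 12.8% of all genes were called higher. Within run 3 it was 2.55 against a pooled SD of 1.81, with 15.9% of all genes called higher. Cells labelled *Prdm14* het exceeded those labelled WT by 2.29, above the pooled SD of 1.89, where 4.84% of all genes were higher and 4% lower. Within run 2 this difference was 1.82 against a pooled SD of 1.73, and 11.5% of all genes were called higher. These means are pulled up by the floor, at which the 7 undetected WT cells sit.

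**Figure D1:**
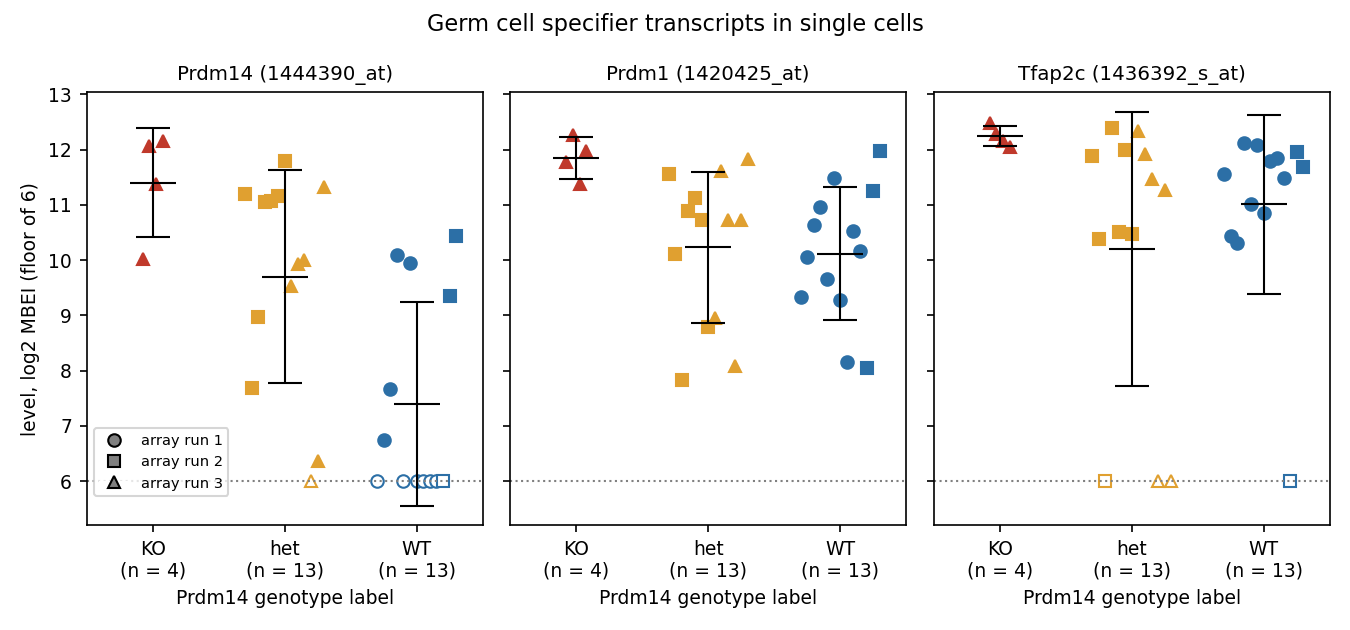
Level of *Prdm14*, *Prdm1* and *Tfap2c* (log2 MBEI, floored at 6) in each of 30 cells by genotype label, with array runs as symbols, open symbols at the floor, and bars for the mean and SD between cells. The cells labelled KO have the highest mean for all 3 genes (11.40, 11.85 and 12.24), and for each gene 2 WT cells lie at or above the lowest KO cell, which for *Prdm14* is cell 8 at 10.03.

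*Prdm1*, on chromosome 10 from 44437174 to 44528558 in GRCm38.p6, was read by probe set 1420425_at and was detected in all 30 cells, which the choice of cells by *Prdm1* PCR fixes. Its level still varied widely among them. Cells labelled *Prdm14* KO had 11.78, 12.27, 11.38 and 11.97, those labelled *Prdm14* het ran between 7.83 and 11.83 with a median of 10.73, and those labelled WT between 8.04 and 11.97 with a median of 10.17. The KO cells were tightly grouped at the top, and 3 het and 2 WT cells reached their range.

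The mean of *Prdm1* was 11.85 ± 0.37 in cells labelled *Prdm14* KO (SD, n = 4), 10.23 ± 1.36 in *Prdm14* het and 10.11 ± 1.20 in WT (SD, n = 13 each). The labelled KO cells were higher than WT by 1.73 (pooled SD of 1.09) and higher than het by 1.62 (pooled SD of 1.23). Within run 3 the second of these was 1.53 (pooled SD of 1.20). Het and WT cells did not differ beyond their spread, with a difference of 0.11 and a pooled SD of 1.29, and within run 2 the het mean was below WT (-0.27, pooled SD of 1.57). The order of the 3 labels for *Prdm1* is therefore KO above the other two, which were next to each other.

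*Tfap2c*, on chromosome 2 from 172545678 to 172558622 in GRCm38.p6, is read by 3 probe sets. The one with the highest mean, 1436392_s_at, stands for the gene; its suffix means that its probes can match more than 1 transcript. Cells labelled *Prdm14* KO had 12.48, 12.29, 12.16 and 12.05. Cells labelled *Prdm14* het ran from the floor to 12.38 with a median of 11.27, and those labelled WT from the floor to 12.11 with a median of 11.56. By this probe set the 26 cells in which it was detected all lay between 10.32 and 12.48, and the other 4 were below the floor. The other 2 probe sets were graded, at 6.40 to 11.12 (1418147_at) and 6.22 to 10.74 (1448977_at) in the 24 cells each in which they were detected.

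Means of *Tfap2c* were 12.24 ± 0.18 in cells labelled *Prdm14* KO (SD, n = 4), 10.20 ± 2.49 in *Prdm14* het and 11.01 ± 1.62 in WT (SD, n = 13 each). Over all runs none of the differences of this probe set exceeded the spread between cells: KO minus WT was 1.23 (pooled SD of 1.45), KO minus het 2.05 (pooled SD of 2.22) and het minus WT -0.81 (pooled SD of 2.10). Within run 3 KO minus het was 2.41, just above its pooled SD of 2.37, and within run 2 het minus WT was 0.64 (pooled SD of 2.51), the opposite sign to that over all runs. Between medians the first pair differed by 0.66 and the second by 0.95, and without WT cell 61 the KO mean exceeded WT by 0.82, which is below 2-fold. The 2 other probe sets were highest in KO-labelled cells as well. Probe set 1418147_at averaged 10.54 ± 0.61 in *Prdm14* KO, 8.38 ± 1.77 in *Prdm14* het and 8.37 ± 1.80 in WT, and KO exceeded het by 2.16 (pooled SD of 1.61) and WT by 2.17 (pooled SD of 1.63), both past the spread. Probe set 1448977_at averaged 10.06 ± 0.52, 8.36 ± 1.99 and 8.15 ± 1.46 in the same order, and KO exceeded WT by 1.91 (pooled SD of 1.33) and het by 1.70, within the pooled SD of 1.80. The difference between KO and WT thus passed the spread in 2 of the 3 probe sets. These read the same gene in the same cells, so they are not independent. Over the 30 cells the 3 probe sets followed each other, with Pearson's r of 0.77 (1418147_at with 1436392_s_at), 0.87 (1418147_at with 1448977_at) and 0.73 (1436392_s_at with 1448977_at).

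Joint detection separated the cells further. All 3 transcripts were detected in 20 of 30 cells, namely 4 of 4 labelled *Prdm14* KO, 10 of 13 labelled *Prdm14* het and 6 of 13 labelled WT. *Prdm1* and *Tfap2c* without *Prdm14* occurred in 6 cells, all labelled WT and all in run 1 (cells 25, 48, 50, 51, 56 and 59). In these 6 *Tfap2c* stood between 10.86 and 11.84. *Prdm1* and *Prdm14* without *Tfap2c* occurred in *Prdm14* het cells 78 and 119, and *Prdm1* alone in *Prdm14* het cell 100 and WT cell 61. In run 1, *Tfap2c* was detected in 10 of 10 cells and *Prdm14* in 4 of 10. In runs 2 and 3 *Prdm14* was detected in 9 of 10 cells each and *Tfap2c* in 8 of 10 each. All cells with *Prdm1* and *Tfap2c* but no *Prdm14* came from 1 run, whose part in the pattern was not tested.

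*Prdm14* het cell 119 stood apart from the other 3 cells without *Tfap2c*. Its *Tfap2c* probe set read 5.76, just below the floor, and its other 2 were listed at 0. Yet *Prdm1* was 11.83 and *Prdm14* 11.32 in this cell, near the top of their ranges, and the germ cell genes *Dppa3* (12.12), *Kit* (11.57) and *Ifitm3* (13.20) were at levels seen in the cells with *Tfap2c*. Other genes of cell 119 were less clear: *Dnd1*, at 9.78, was 8th from the lowest of the 30 cells. *Snai1* (7.59), *Hand1* (10.46) and *Fendrr* (7.08) were detected in it, while *Myc* and *Hoxb1* were at the floor. *Sox17* was at the floor in all 4 cells without *Tfap2c* and in 5 of the 26 with it.

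**Figure D2:**
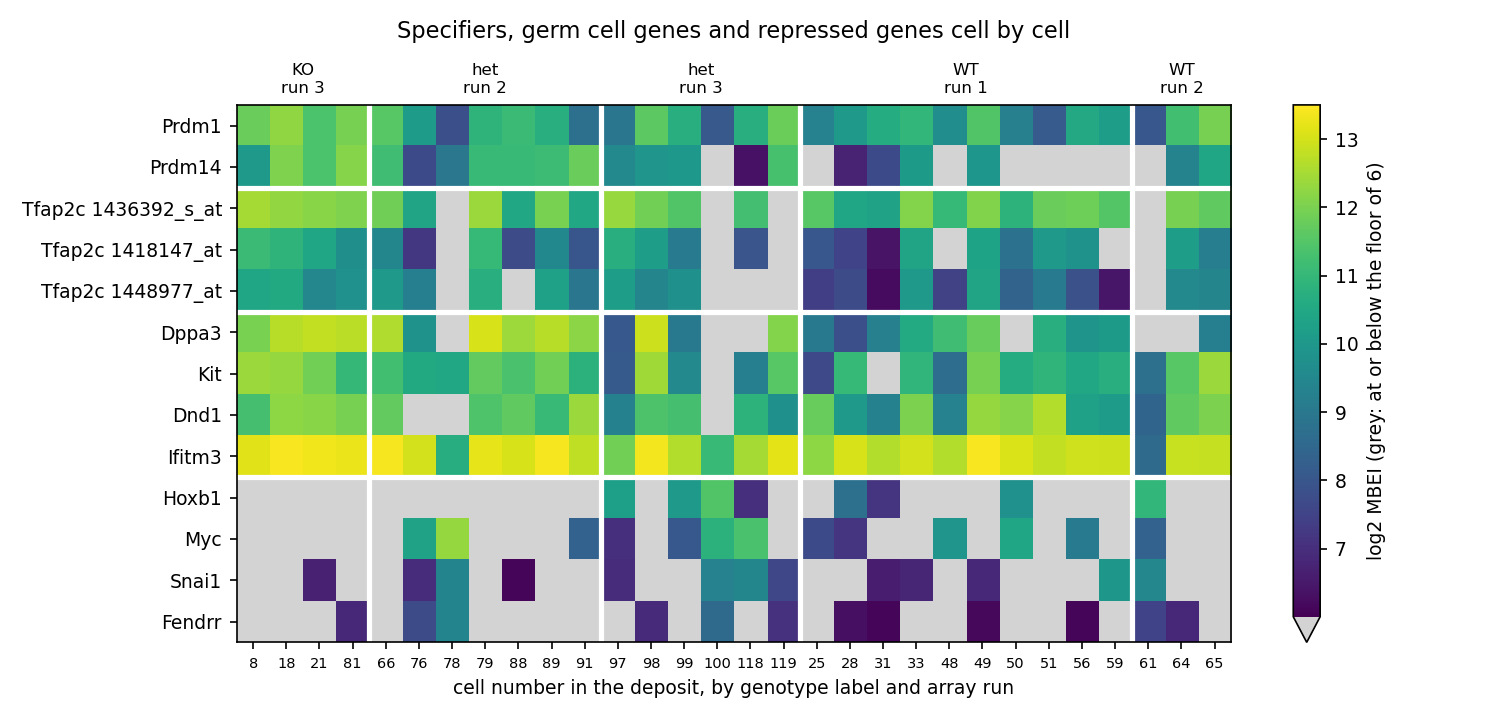
Level (log2 MBEI, colour; grey at or below the floor of 6) of *Prdm1*, *Prdm14*, the 3 *Tfap2c* probe sets, 4 germ cell genes and 4 genes repressed in germ cells in each of 30 cells, ordered by genotype label and array run. Colours can be compared along a row but not between rows. *Tfap2c* is grey in all 3 rows in het cells 78, 100 and 119 and WT cell 61, and *Prdm14* is grey in 6 of the 10 WT cells of run 1.

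Of the 3 pairs, *Prdm14* and *Prdm1* had the highest r across the 30 cells. Pearson's r was 0.62 and Spearman's rho 0.69 over 30 cells, which share runs, labels and possibly embryos, so these are descriptions. Without the 3 cells that lack *Tfap2c* and *Dppa3* r was 0.61 (n = 27), and with the means of each label within each run taken off it was 0.64. It was 0.43 within cells labelled *Prdm14* KO (n = 4), 0.42 within *Prdm14* het (n = 13) and 0.81 within WT (n = 13), and 0.74, 0.51 and 0.74 within runs 1, 2 and 3 (n = 10 each). Where both were detected (n = 22) r was 0.36 and rho 0.54, so part of the relation is between cells with and without *Prdm14*. *Prdm14* het cell 91 had high *Prdm14* (11.79) with low *Prdm1* (8.78). Among cells without *Prdm14*, the highest *Prdm1* was 10.52 in WT cell 56, below the median of 10.72 over the 30 cells.

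*Prdm1* and *Tfap2c* had an r of 0.52 and a rho of 0.53 (n = 30). Over the 26 cells with *Tfap2c*, r was 0.41 and rho 0.51. Without the 3 cells named above r was 0.03 and rho 0.38, with *Prdm14* het cell 119 left as the one cell with no *Tfap2c* and with high *Prdm1*. Without that cell alone r was 0.70 (n = 29). Within runs 1, 2 and 3 r was 0.16, 0.88 and 0.38 (n = 10 each), so the size of the relation was not the same in each run.

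*Prdm14* and *Tfap2c* had an r of 0.26 and a rho of 0.42, the lowest of the 3 pairs over all 30 cells. The r was 0.04 without the same 3 cells, 0.39 without *Prdm14* het cell 119, 0.48 over the 20 cells in which both were detected (the highest of the 3 pairs in such cells) and 0.47 with run means taken off. Within cells labelled *Prdm14* KO it was -0.80, over 4 cells whose *Tfap2c* levels span 12.05 to 12.48. None of the 3 genes followed the number of genes detected per cell, with r of 0.09 for *Prdm1*, 0.11 for *Prdm14* and -0.03 for *Tfap2c*.

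**Figure D3:**
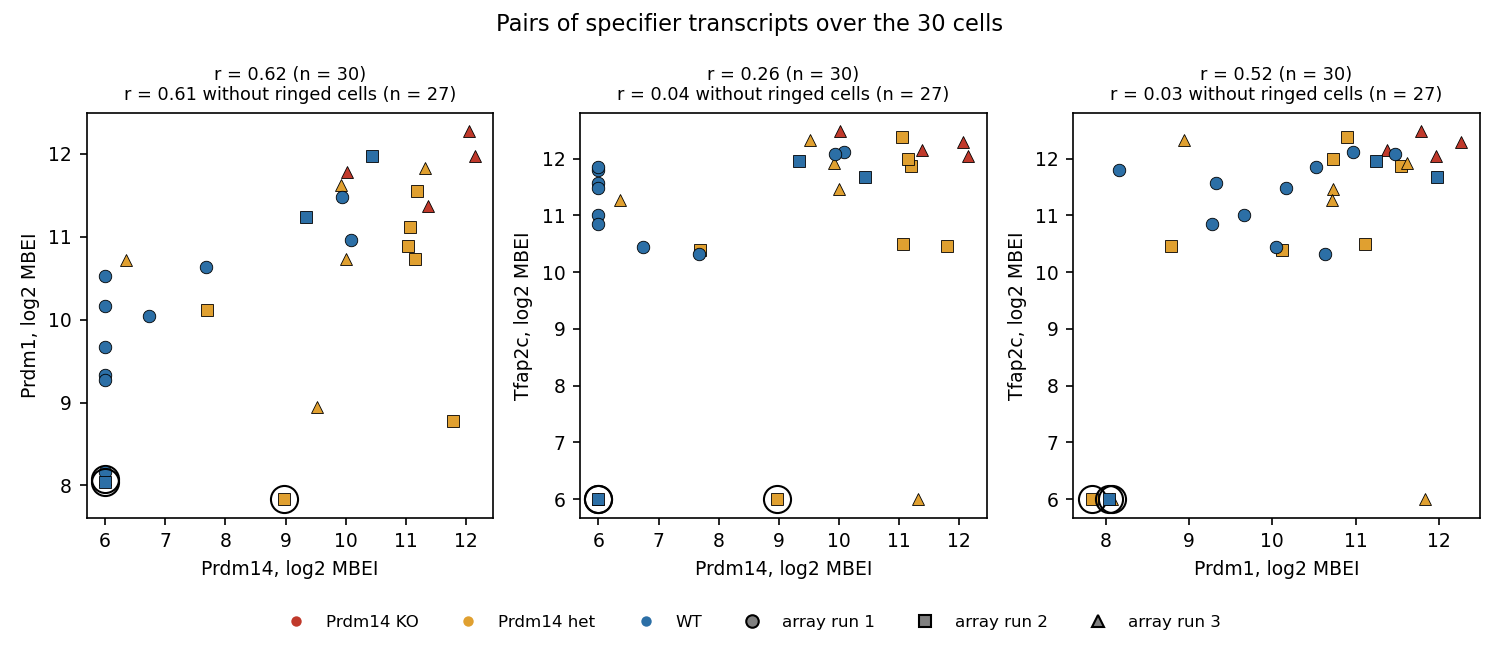
Each pair of the 3 transcripts over the 30 cells (log2 MBEI on both axes), coloured by genotype label with array runs as symbols; rings mark the 3 cells with *Tfap2c* and *Dppa3* below the floor, where points overlap. *Prdm14* and *Prdm1* have an r of 0.61 without the ringed cells, while the r values of *Tfap2c* with *Prdm14* and *Prdm1* are 0.04 and 0.03 without them, with het cell 119 then the single point at the *Tfap2c* floor, and 0.48 and 0.41 over cells with both genes detected.

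Ranked among the other 8519 genes detected in at least 10 cells, *Prdm14* was 20th by its r with *Prdm1*, and *Prdm1* was 31st by its r with *Prdm14*. *Tfap2c* was 107th for *Prdm1* and *Prdm1* 93rd for *Tfap2c*. *Prdm14* was 1117th for *Tfap2c*. For scale, 1.51% of genes had an r of at least 0.5 with *Prdm1*, 2.07% with *Prdm14* and 1.28% with *Tfap2c*.

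The genes most like *Prdm1* over the 30 cells were *Mov10*, an RNA helicase (r = 0.74), *Cldn5*, a tight junction claudin (0.73), *Ifitm3* (0.71), *Psme1*, a proteasome activator subunit (0.71), *Mrpl23*, a mitochondrial ribosomal protein gene (0.69), and *Sox15*, a SOX-family factor (0.68). *Cldn5* was detected in only 14 cells and its mean was 10.51 in cells labelled *Prdm14* KO, 7.99 in *Prdm14* het and 6.90 in WT. Its r with *Prdm1* was 0.73 in the 27 cells too, and 0.68 with label-within-run means taken off. The most opposed were *Kbtbd8*, a ubiquitin ligase adaptor (-0.78), *Rmdn3*, which tethers mitochondria to the endoplasmic reticulum (-0.65), and *Mtap*, an enzyme of methionine salvage (-0.64). Without the 3 cells the r of *Kbtbd8* was -0.68.

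*Prdm14* was most like *Gdf3*, a TGF-beta family ligand of pluripotent cells (r = 0.76), *Ybx2*, a germ cell RNA-binding protein (0.71), *Tedc1* (0.71), *Gstm3*, a glutathione transferase (0.70), *Tm7sf2*, a sterol reductase (0.70), and *Map4k4*, a kinase (0.69). For *Gdf3* and *Ybx2* r was 0.72 and 0.59 with label-within-run means taken off, and for *Gstm3* 0.46. Part of these relations lies between the labelled groups, since the mean of *Gdf3* was 9.53 in cells labelled *Prdm14* KO, 8.01 in *Prdm14* het and 7.31 in WT. *Gja1*, the gap junction protein connexin 43, was the most opposed (-0.76): it was at the floor in every cell labelled *Prdm14* KO, and averaged 8.88 in *Prdm14* het and 10.25 in WT. *Pdap1* (-0.71) and *Snhg4*, a non-coding snoRNA host gene (-0.70), came next.

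*Tfap2c* was most like *Tnni3*, a troponin subunit (r = 0.81), *Alkbh7*, a mitochondrial dioxygenase (0.79), *Parp12*, an ADP-ribosyltransferase (0.79), *L1td1*, an RNA-binding protein of pluripotent cells (0.76), *Mfsd13a* (0.76) and *F11r*, a junctional adhesion molecule (0.75). Without the 3 cells r was 0.64 for *Tnni3*, 0.68 for *L1td1* and 0.42 for *F11r*. *Fendrr*, a non-coding RNA of lateral mesoderm, was the most opposed (-0.78), and its r was -0.41 in the 27 cells. It was above the floor in all 4 cells without *Tfap2c*, at 7.08 to 9.39, and in 8 of the 26 cells with it, at no more than 7.72. *Car4*, a carbonic anhydrase (-0.71), and *Ncs1*, a calcium sensor (-0.68), followed.

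Germ cell genes known to act after the 3 factors were mostly higher in the cells with more of them. Of 10 listed genes, 9 were measured, and *Nanos3* was not analysed here. The list was chosen with earlier results of these data known, so its counts are not independent of them. Between cells labelled *Prdm14* KO and WT, 7 of the 9 were higher by at least 1 and 0 were lower, with a median difference of 2.19, against the 14.6% and 8.84% and the median of 0.12 over all genes given above. *Sox2*, a pluripotency factor that PGCs regain, averaged 12.48 in cells labelled *Prdm14* KO, 9.73 in *Prdm14* het and 7.58 in WT. *Dppa3*, which limits DNA methylation in oocytes and germ cells, averaged 12.55, 10.23 and 9.05 in the same order, and *Kit*, the receptor for stem cell factor, 11.90, 10.38 and 10.13. *Klf2*, a naive pluripotency factor, was detected in 10 cells and averaged 10.52 in *Prdm14* KO, 7.56 in *Prdm14* het and 6.34 in WT. *Itgb3*, an integrin that marks PGCs, is among the 7 but was detected in only 4 cells, so it lies outside the genes behind the shares. *Dnd1*, an RNA-binding protein, and *Ifitm3* differed by 0.99 and 0.76. Between cells labelled *Prdm14* het and WT, 3 of the 9 were higher by at least 1 and 1 (*Dnd1*, -1.01) was lower, against 4.84% and 4% of all genes.

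The same list differed in which of the 3 factors its members followed. All 8 members detected in at least 10 cells had a positive r with each of the 3 genes, with a median of 0.54 for *Prdm1*, 0.56 for *Prdm14* and 0.39 for *Tfap2c*. How many of all genes had a positive r was not counted, so this count has no background beside it. An r of at least 0.5 was reached by 1.51%, 2.07% and 1.28% of all genes in the same order. *Sox2* and *Dppa3* had their highest r with *Prdm14* (0.68 and 0.66), and both values moved little without the 3 cells (0.71 and 0.63). *Dnd1* had its highest r with *Tfap2c* (0.70), followed by *Prdm1* (0.52) and *Prdm14* (0.41). In the 27 cells these were 0.37, 0.17 and 0.35. *Ifitm3* had r of 0.71 with *Prdm1* and 0.70 with *Tfap2c*, but in the 27 cells these were 0.63 and 0.02. The r of *Tfap2c* with *Dppa3* was 0.46 with the 3 cells and 0.05 without them. The 27 cells include *Prdm14* het cell 119, which has both *Dppa3* and *Ifitm3* but no *Tfap2c*.

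Genes repressed as PGCs form, most of them of the mesoderm programme or of DNA methylation, lay mostly on the other side. Of these, 11 genes were measured, from a list that was also chosen with earlier results of these data known. Between cells labelled *Prdm14* KO and WT, 6 of the 11 were lower by at least 1 and 1 was higher (*Fgfr2*, 1.65), with a median difference of -1.19, against 8.84% lower, 14.6% higher and a median of 0.12 over all genes. *Dnmt3b*, a de novo DNA methyltransferase, averaged 7.66 in cells labelled *Prdm14* KO, 9.88 in *Prdm14* het and 11.18 in WT. *Uhrf1*, a cofactor of maintenance methylation, averaged 7.76, 9.04 and 9.78 in the same order. *Myc* was at the floor in every cell labelled *Prdm14* KO and averaged 8.02 in *Prdm14* het and 7.28 in WT.

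Across cells, 9 of the 10 repressed genes detected often enough had a negative r with *Prdm1*, and 8 of 10 with *Prdm14* and with *Tfap2c*. How many of all genes had a negative r was not counted, so these counts have no background beside them. *Dnmt3b* had r of -0.59 with *Prdm1* and -0.63 with *Prdm14*, and -0.54 and -0.60 without the 3 cells. *Myc* had -0.62 with *Prdm1* and -0.54 with *Prdm14*. *Snai1*, a driver of the epithelial to mesenchymal transition, had its lowest r with *Tfap2c* (-0.64), and this was -0.22 in the 27 cells. *Fgf8* had a positive r with all 3 genes, the highest with *Tfap2c* (0.46), and *Fgfr2* had 0.47 with *Prdm14*.

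**Figure D4:**
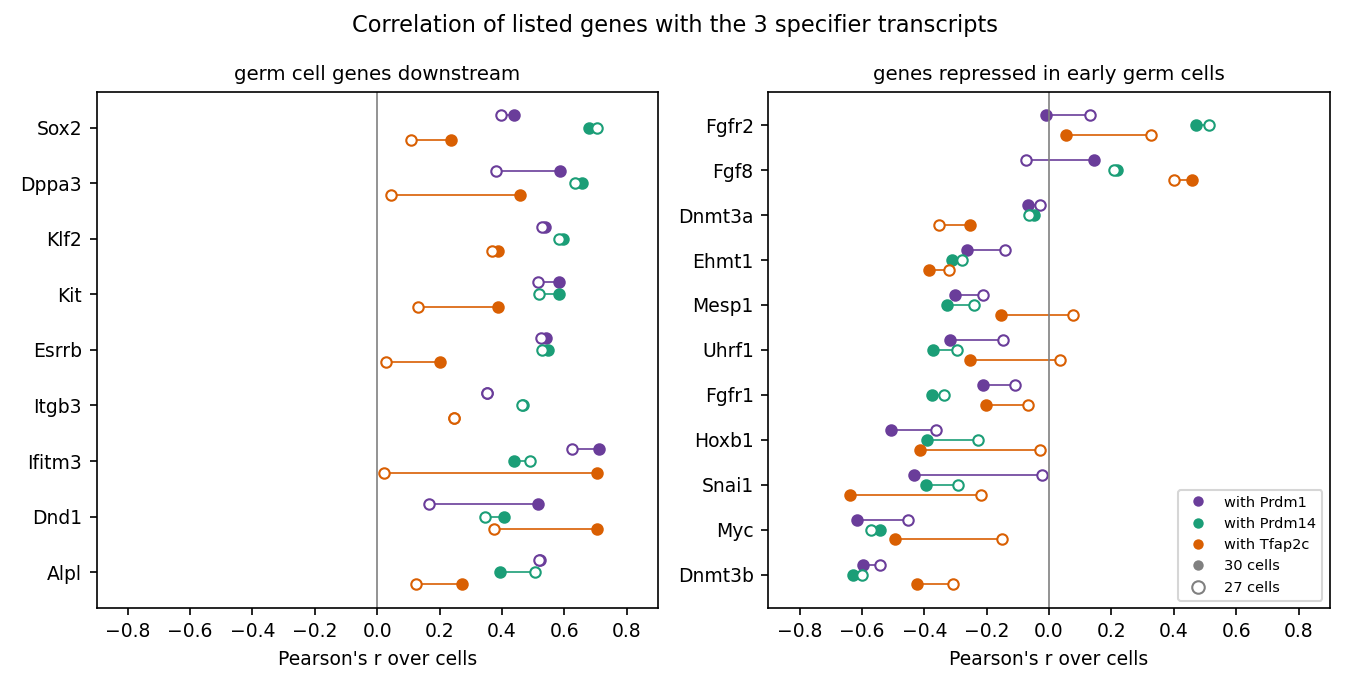
Pearson's r over cells of 9 germ cell genes (left) and 11 genes repressed in early germ cells (right) with *Prdm1*, *Prdm14* and *Tfap2c*; filled points are from 30 cells and open points from the 27 cells left without those lacking *Tfap2c* and *Dppa3*. The *Prdm14* points move from -0.63 to -0.60 for *Dnmt3b* and, at most, from -0.39 to -0.23 for *Hoxb1*. That of *Tfap2c* with *Ifitm3* is 0.70 over 30 cells and 0.02 over 27, which include het cell 119.

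Proteins that work with the 3 factors were called about as often as all genes. Of 12 partner genes, all detected in at least 22 cells, 2 were higher by at least 1 in cells labelled *Prdm14* KO than in WT and 0 lower, with a median of 0.33, against 14.6% higher and 8.84% lower over all genes. They were *Cbfa2t2*, the corepressor that binds PRDM14 (11.00 against 9.71), and *Suz12*, a Polycomb subunit (10.61 against 9.42). *Cbfa2t2* also had the highest r of the 12 with *Prdm14* (0.60, and 0.63 in the 27 cells). *Prmt5*, an arginine methyltransferase that binds PRDM1, had an r of only 0.11 with *Prdm1*. *Cited2*, a coactivator of AP-2 factors, had -0.49 with *Tfap2c*.

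The upstream signals had r of mixed sign with the 3 genes. Of 13 listed, 12 were measured, and *T* was not analysed here. Of the 12, 8 were detected in at least 10 cells, the filter behind the shares over all genes. Among these 8, r was positive for 4 with *Prdm1*, 2 with *Prdm14* and 3 with *Tfap2c*, and the share of all genes with a positive r was not counted. The median r of the 8 was 0.02, -0.15 and -0.10 in the same order. The mean level of the 12 had an r of -0.16 with *Prdm1*, -0.38 with *Prdm14* and -0.11 with *Tfap2c*. Between cells labelled *Prdm14* KO and WT 1 was higher by at least 1 (*Bmpr2*, a BMP receptor, 1.07) and 0 lower, with a median of -0.04, against 14.6% higher and 8.84% lower over all genes. *Bmp4* itself was detected in 29 of 30 cells, at 10.68 in *Prdm14* KO, 11.41 in *Prdm14* het and 10.70 in WT, and its r was 0.00 with *Prdm1*, 0.17 with *Prdm14* and 0.16 with *Tfap2c*. *Wnt3* was detected in 1 cell.

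Related family members ranged from undetected to detected in 28 cells. Among those detected in at least 10 cells, r with the 3 genes ran from -0.35 (*Tfap2a* with *Prdm14*) to 0.21 (*Prdm10* with *Prdm1*). Of 10 other *Prdm* genes measured, *Prdm8*, *Prdm9*, *Prdm16* and *Mecom* were at the floor in all 30 cells and so could not differ. Between cells labelled *Prdm14* KO and WT, 0 of the 10 differed by at least 1, against 14.6% higher and 8.84% lower over all genes. Those shares cover genes detected in at least 10 cells, as only 4 of the 10 were, too few to set apart from the shares. *Prdm4* and *Prdm2* were the most often detected, in 28 and 26 cells. Of 4 other *Tfap2* genes, *Tfap2b* and *Tfap2e* were at the floor throughout and *Tfap2d* was detected in 2 cells. *Tfap2a*, an early ectoderm factor, was detected in 11 cells, in 0 of those labelled *Prdm14* KO, and averaged 6.00, 7.16 and 7.44 in KO, het and WT.

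Promoter sequence from RefSeq (GRCm38.p6), 250 bases before to 50 after each start site, was at hand for 7 of the 10 listed germ cell genes and for *Prdm1* among the 3 factors. An AP-2 motif (GCCNNNGGC, the palindrome that TFAP2C binds, the same on both strands) was present in 3 of these 7 genes, *Kit*, *Alpl* and *Nanos3*, and in 16.6% of all 32851 promoters. A PRDM1 motif (GTGAAAG, either strand) was present in 1 of the 7, a second promoter of *Alpl*, and in 4.24% of all. A PRDM14 motif (GGTCTCTAA, either strand) was present in 0 of the 7 and in 0.256% of all. None of the 3 motifs was in the *Prdm1* window. The counts are per gene, and *Alpl*, *Esrrb* and *Kit* had more than 1 window each, while the shares are per promoter. A gene with more windows has more room for a match, so counts and shares are not on the same footing. A match is a run of letters, not a binding site. The stretches of *Kit* and *Alpl* that hold the AP-2 motif are printed because both genes are measured here, with the motif in capitals. In *Kit* it starts at position -134 from the start site. In *Alpl*, which encodes the alkaline phosphatase long used to stain PGCs, 2 copies start at -40 and -20, and another that begins at -5 runs across the start site and is not marked.
Kit, chr5:75574827-75574886, plus strand: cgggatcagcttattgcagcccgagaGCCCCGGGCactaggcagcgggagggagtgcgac
Alpl, chr4:137796385-137796444, minus strand: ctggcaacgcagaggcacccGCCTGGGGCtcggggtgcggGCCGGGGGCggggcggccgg
Over the 30 cells *Kit* had r of 0.39 with *Tfap2c* and 0.58 with both *Prdm1* and *Prdm14*, and *Alpl* had 0.27 with *Tfap2c*, 0.52 with *Prdm1* and 0.39 with *Prdm14*. Both genes thus followed *Tfap2c* less closely than *Prdm1* in these cells, and in the 27 cells their r with *Tfap2c* was 0.13 and 0.12.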

How the data were processed

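The authors calculated the deposited log2 MBEI values with dChip 1.3 (PM/MM difference model) from 1 array per cell. Neither how arrays were scaled to each other nor how zeros arose was found in the sources used here. The number of cells limits the precision. Here values were floored at 6 (64 MBEI) and symbols were taken from the platform annotation: of 45101 probe sets, 34958 had 1 symbol, 932 several and 9211 none listed. The probe set with the highest mean stood for a gene. Rankings and background shares used the 8520 genes above the floor in at least 10 cells. Groups came from the genotype labels and runs from the array codes. Differences are between group means, with the SD between cells, and correlations are descriptions. No test was run, since cells of 1 label may share an embryo. No pair of arrays held identical values, and r between arrays ran from 0.578 to 0.737.

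Named genes were the 3 factors, the listed genes and, for each factor, the 6 with the highest and 3 with the lowest r. *Fendrr* and *Ifitm3* are named by that rule, and the 4 cells lacking *Tfap2c* were singled out after their values were seen. Members and lists were chosen with earlier results of these data known. Alternatives were other floors (16 and 256 MBEI), quantile normalization, centring each array on the 3239 probe sets above 0 on every array, medians, means over probe sets, run as a block, single runs and cells left out. The steps were tested on simulated data. Software was Python 3.11.15 with pandas 2.3.3, NumPy 2.4.6 and, for plots, matplotlib 3.10.9.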

Additional observations from a re-analysis of the deposited data

Results flagged for a closer look

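For each of the 5 probe sets in 4 sets of cells with the same label and run (20 groups in all), the gap between the most extreme cell and its nearest neighbour was compared with the group's whole range. It stood out in 1 group, and chance gives about 1 in 20. In *Tfap2c* (1436392_s_at), among the 7 cells labelled *Prdm14* het of run 2, cell 78 lay at the floor of 6 against 10.385 in the next cell, a gap of 0.687 of the range.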

How the results depend on the processing

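No paired analysis was possible because the cell numbers are not shared between labels. Of 137 planned recalculations, 130 stayed near the value reported (within the pooled SD for a difference, 0.2 for r, 1.5 times for a count of cells), and no r and no difference of at least 1 changed sign. *Tfap2c*, het minus WT (-0.81, not called), was 0.64 in run 2 and with the run as a block, where that of *Prdm1* (0.11) was -0.27. *Prdm14*, KO minus WT, was 5.72 between medians. *Tfap2c*, KO minus WT, was 3.05 with the array run as a block, where only the 3 WT cells of run 2 stand for WT. The r of *Prdm14* with *Prdm1* was 0.36 over cells with both above the floor. That of *Prdm14* with *Tfap2c* was 0.46 with the mean over all probe sets, 0.47 with run means off and 0.48 over cells with both above the floor. That of *Prdm1* with *Tfap2c* was 0.29 without the 2 cells farthest from the median of *Prdm1*. Without the 3 cells with *Tfap2c* and *Dppa3* below the floor, chosen after seeing the data, the r of *Tfap2c* was 0.0413 with *Prdm14* and 0.0318 with *Prdm1*. The other 10 values without these cells stayed near those reported. Leaving out each cell in turn, r ran from 0.59 to 0.71 (*Prdm14* with *Prdm1*), 0.17 to 0.39 (*Prdm14* with *Tfap2c*) and 0.42 to 0.70 (*Prdm1* with *Tfap2c*). Without WT cell 61, *Tfap2c* differed by 0.82 for KO minus WT and by -1.23 for het minus WT, so the first fell under 2-fold and the second passed it. For *Prdm1*, het minus WT ran from -0.06 to 0.31 over cells left out.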
